A study of Mus musculus with 2 samples.

Results

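The messenger RNA levels of 9 genes were followed across the cells of an allergic skin lesion of the mouse: 6 lectins of the CD209 family (Cd209a, Cd209b, Cd209d, Cd209e, Cd209f and Cd209g) and 3 surface receptors known from tissue macrophages (Lyve1, Folr2 and Timd4). The genes were chosen by name, with earlier results of these data known. All 9 were among the 35208 genes of the table, where they took 131163 of 468398572 reads (0.0280%). IgE-mediated chronic allergic inflammation (IgE-CAI) was raised in the ear skin of WT and Ccr2-/- mice of the BALB/c strain, the latter lacking in all cells the chemokine receptor through which classical monocytes leave the bone marrow. All mice received 300 µg of an IgE antibody against the hapten TNP intravenously and, on the next day, 10 µg of TNP-coupled ovalbumin in the ear. Cells taken 3 and 5 days after the challenge were marked with a hashtag antibody for each genotype and day, mixed, and read as 1 single-cell library from 10000 loaded cells, so that each of the 4 pools was 1 sample. Values by pool are always given for WT at days 3 and 5 and then for Ccr2-/- at days 3 and 5. No pool of unchallenged skin is labelled, and the number of mice in a pool is not given in the sources used here.

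CD209 proteins are C-type lectins that bind mannose and fucose on microbes and on host glycoproteins. Humans carry a single CD209 gene, known as DC-SIGN, whereas the mouse family was expanded by gene duplication: Cd209a is widely used as a marker of monocyte-derived dendritic cells (DCs), and Cd209b, or SIGN-R1, is best known from marginal zone macrophages of the spleen. Lyve1 is a receptor for hyaluronan on lymphatic endothelium and on perivascular macrophages, Folr2 is the folate receptor β of macrophages, and Timd4 is a receptor for phosphatidylserine on apoptotic cells. Lyve1, Folr2 and Timd4 are often read together as marks of long-lived resident macrophages.

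Of 8953 barcodes, 7118 were assigned to 1 pool and kept: 1543 from WT day 3, 1037 from WT day 5, 2191 from Ccr2-/- day 3 and 2347 from Ccr2-/- day 5. The median depth per cell was 39778, 48232, 34410 and 18632 reads in the same order. Levels are given as reads per 1000000 reads of a cell group (CPM) with exact 95% Poisson intervals. These intervals cover the counting error of reads only, because each genotype and day was 1 pool. Reads were not collapsed by molecular identifiers, so copies of the same molecule count as separate reads. The intervals can therefore be too narrow even for counting error. Ccr2 itself, summed over the monocyte-macrophage lineage, stood at 835 and 625 CPM in the WT pools and at 63.8 and 28.5 CPM in the Ccr2-/- pools.

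Cell groups were set without the 9 genes. A cell of the 1458 mononuclear phagocytes was placed in a group when its mean score over a fixed marker list led the next list by 0.25, and 533 cells were left without a group. The resident macrophage-like group (93 cells, median 60975 reads) was led by Gas6, F13a1, Cbr2, C1qc and Stab1, with 15, 43, 18 and 17 cells in the 4 pools. C1qc and C1qa, markers of the C1q macrophage gate, were among its 10 leading genes. The C1q macrophage-like group held 114 cells, the monocyte-derived DC-like group, defined by MHC class II genes, 196, the mature DC-like group 42, the cDC1-like group 39 and the plasmacytoid DC-like group 60. Early and late CMDM-like cells (classical monocyte-derived macrophages) numbered 131 and 52, and monocyte-like cells 128. A further 53 cells entered the gate for Langerhans cells, but MHC class II genes led it and it is left unnamed here. Cells outside any group held 34.9% of all Cd209a reads, 40.7% of Cd209d reads, 50.8% of Folr2 reads and 57.4% of Cd209f reads. The groups therefore do not hold all cells with these genes. The monocyte-derived DC-like gate used no monocyte gene, so its name does not show an origin. On re-clustering, 90 of its 196 cells fell in the cluster of that name. A further 33 fell with classical monocytes, 26 with C1q macrophages, 11 with cDC1 and 27 in no named cluster. The resident limit was also soft: 30 of its 93 cells led by less than 0.1 more than required, and re-clustering placed 27 with C1q macrophages. Its largest pool, WT day 5, was high in Ccr2 (680.3 CPM), whereas the paper describes resident-like macrophages as low in it.

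The CD209 genes lie side by side on chromosome 8 (GRCm38.p6), from Cd209a (3743395 to 3748984) through Cd209e (3847973 to 3854286), Cd209d (3871824 to 3878548), Cd209b (3917655 to 3926841) and Cd209f (4102784 to 4105838) to Cd209g (4134246 to 4137707), a stretch of 394 kb. Folr2 (101839988 to 101857190) and Lyve1 (110850607 to 110862953) are on chromosome 7 and Timd4 (46810786 to 46844333) on chromosome 11. Cd209f and Cd209g are near copies. Of the 50-base stretches of their annotated transcripts, 646 of 2168 in Cd209f and 646 of 3890 in Cd209g were found in the other gene. Every other member shared 0 stretches with the genes compared, which were the members, Cd209c, Folr1, Timd2, Havcr1 and Stab1. Other genes were not searched. Reads of Cd209f and Cd209g could therefore be split between them by the counting, and their values are uncertain as single genes. The 120 bases before a RefSeq start of each CD209 gene are shown, 5′ to 3′ on the gene's strand. They are given since the family fell into separate patterns of expression. For Cd209d, Cd209f and Cd209g the start used lay inside the gene span given above. The Cd209g window (4134616 to 4134735) lay wholly within that span, and those of Cd209d and Cd209f lay partly within theirs. Capitals mark letters of the ETS core (CCGGAA or AGGAAG), the AP-1 site (TGAGTCA) or the TATA box (TATAAA) on either strand, motifs that were chosen after these sequences had been read.
Cd209a: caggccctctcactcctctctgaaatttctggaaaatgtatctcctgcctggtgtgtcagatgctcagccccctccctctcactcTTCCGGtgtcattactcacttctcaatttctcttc
Cd209d: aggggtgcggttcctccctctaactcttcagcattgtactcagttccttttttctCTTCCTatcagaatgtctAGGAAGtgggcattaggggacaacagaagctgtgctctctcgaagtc
Cd209e: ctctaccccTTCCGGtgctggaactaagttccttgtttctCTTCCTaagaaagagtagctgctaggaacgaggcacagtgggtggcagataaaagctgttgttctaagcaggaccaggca
Cd209b: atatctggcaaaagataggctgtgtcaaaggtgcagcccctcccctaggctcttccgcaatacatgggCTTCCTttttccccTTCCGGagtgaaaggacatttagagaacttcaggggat
Cd209f: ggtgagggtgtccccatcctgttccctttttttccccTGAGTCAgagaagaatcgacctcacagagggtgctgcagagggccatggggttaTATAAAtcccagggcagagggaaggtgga
Cd209g: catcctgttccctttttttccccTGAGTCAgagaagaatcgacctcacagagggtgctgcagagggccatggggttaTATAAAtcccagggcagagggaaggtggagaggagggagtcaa
An ETS core was present before Cd209a, Cd209d, Cd209e and Cd209b, the nearest at positions -35, -47, -80 and -38 from the start used. CCGGAA occurred in 8.07% and AGGAAG in 16.3% of 32851 RefSeq windows of the same length. Cd209f and Cd209g had neither, and carried TGAGTCA at -83 and -97 and TATAAA at -29 and -43, letters held by 2.30% and 6.34% of all windows. Over the 300 bases around the start, Cd209f and Cd209g were 92.2% identical and every other pair 58.1% to 68.1%. A match of letters is a description of the sequence and not evidence of binding.

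The 6 lectins divided between DC-like and macrophage-like groups, with exceptions in small gates given below. Cd209a, Cd209d and Cd209e were each read at 447.1 CPM or more in monocyte-derived DC-like cells, while Cd209b, Cd209f and Cd209g were nearly or fully absent there and stood highest among the named groups in resident macrophage-like cells. Cd209d was the member shared by both, at 551.7 CPM in monocyte-derived DC-like, 345.9 CPM in resident macrophage-like and 355.8 CPM in C1q macrophage-like cells.

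Cd209a stood at 641.9 CPM (625.6 to 658.6) in monocyte-derived DC-like cells, 322.4 CPM in plasmacytoid DC-like cells, 103.6 CPM in C1q macrophage-like and 100.8 CPM in resident macrophage-like cells. The intervals of the last pair overlapped. Monocyte-like cells, at 6.29 CPM, and late CMDM-like cells, at 11.6 CPM, were low, and early CMDM-like cells, at 72.7 CPM, lay between. The unnamed MHC class II-high gate of 53 cells had 302.0 CPM, with 514.1 CPM of Cd209d and 438.9 CPM of Cd209e. The gate for type 2 conventional DCs held 17 cells, too few to split by pool, with Cd209d at 1162 CPM and Cd209a at 288.3 CPM.

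In the monocyte-derived DC-like group, Cd209a was read at 568.4, 481.4, 1063 and 838.2 CPM in the 4 pools. In the resident macrophage-like group the same pools gave 181.1, 64.2, 98.7 and 116.7 CPM. The lowest DC-like pool lay above the highest resident pool. In the Ccr2-/- pools, of 16 and 26 DC-like cells, 12 and 13 had a read.

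Cd209e, a lectin of little known function, followed Cd209a between these groups, with 447.1 CPM in monocyte-derived DC-like cells and 66.4 CPM in resident macrophage-like cells. Unlike Cd209a, Cd209e was higher in C1q macrophage-like cells, at 177.1 CPM, than in resident macrophage-like cells. Its 481.8 CPM in plasmacytoid DC-like cells rested on few cells: 6 of 60 had a read, and the top cell held 62.4% of the reads. Across pools the plasmacytoid DC-like value was 25.7, 48.8, 1710 and 23.5 CPM, so 1 pool, in which 2 of 16 cells had a read, carried it. The 7 fibroblast markers summed to 7821 CPM in plasmacytoid DC-like cells, and to 929.1, 5449, 911.9 and 17131 CPM by pool. Their part in the Cd209a and Cd209e values of that group was not tested.

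Cd209b was read at 202.3 CPM (191.9 to 213.1) in resident macrophage-like cells, 112.7 CPM in C1q macrophage-like cells and 9.10 CPM in monocyte-derived DC-like cells. The gate for type 2 conventional DCs, of 17 cells, was not low: it held 116 Cd209b reads among 1172541. C1q macrophage-like cells held 742 among 6582787. In the resident macrophage-like group the 4 pools gave 372.2, 167.3, 161.1 and 216.8 CPM, and in the monocyte-derived DC-like group 12.1, 11.6, 0 and 2.72 CPM. Every resident pool lay above every DC-like pool.

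Cd209f reached 68.95 CPM in resident macrophage-like and 20.1 CPM in C1q macrophage-like cells, and Cd209g 93.1 and 10.5 CPM. The unnamed MHC class II-high gate held 10 Cd209f and 56 Cd209g reads among 4026175. C1q macrophage-like cells held 132 and 69 among 6582787. No read of Cd209f or Cd209g was found in 196 monocyte-derived DC-like cells, which at 3 reads or 3 cells allows up to 0.329 CPM and a share of up to 1.53% of cells with a read. This limits cells with a read at this depth and not cells that express the genes. The same was true of the 60 plasmacytoid DC-like, 42 mature DC-like and 39 cDC1-like cells. Both genes rested on few resident cells (16 and 10 of 93), and 1 cell held 52.9% of the Cd209g reads.

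**Figure D1:**
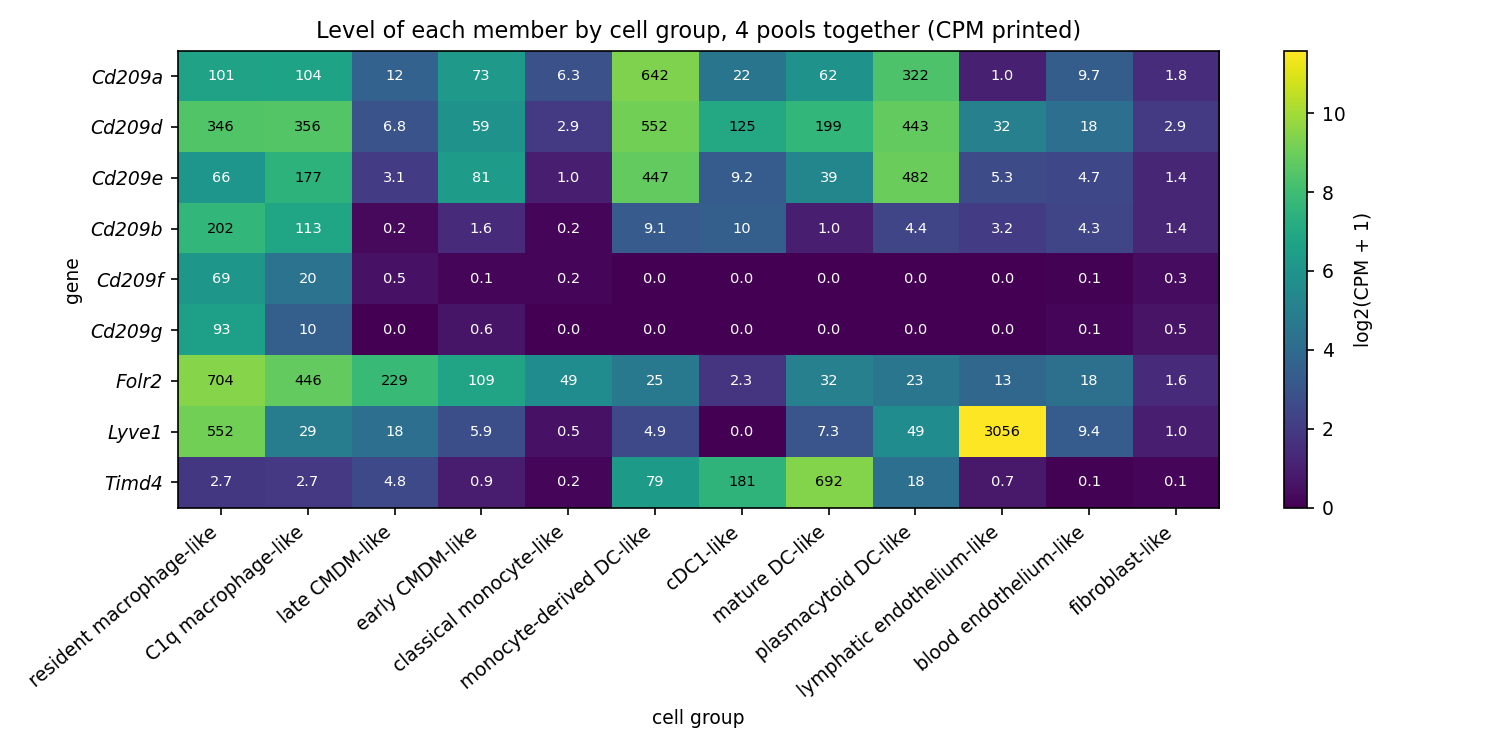
Level of the 9 genes (rows) in 12 cell groups (columns) over all pools, with colour for log2(CPM + 1) and the CPM printed in each field. Cd209a, Cd209d and Cd209e stand highest or near highest in DC-like groups, Cd209b, Cd209f, Cd209g and Folr2 in resident macrophage-like cells (Folr2 703.9 CPM), Lyve1 in lymphatic endothelium (3056 CPM) and Timd4 in mature DC-like cells (692.3 CPM).

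Shares of cells gave a similar picture. Deeper cells show more genes, so every cell was thinned to 10000 reads and shallower cells were left out. A read of Cd209a was then found in 46.9% of monocyte-derived DC-like cells (83 of 177, exact interval 39.4% to 54.5%), 38.6% of plasmacytoid DC-like cells and 23.3% of resident macrophage-like cells (21 of 90), against 0.84% of fibroblast-like cells, which should lack it. Unthinned shares were 47.96%, 38.3%, 33.3% and 6.26%, at median depths of 37110, 32192.5, 60975 and 88533 reads. For Cd209b the thinned share was 18.9% in resident macrophage-like, 13.1% in C1q macrophage-like and 3.95% in monocyte-derived DC-like cells, against 0.40% in fibroblast-like cells (unthinned 23.7%, 15.8%, 5.61% and 2.30%).

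**Figure D2:**
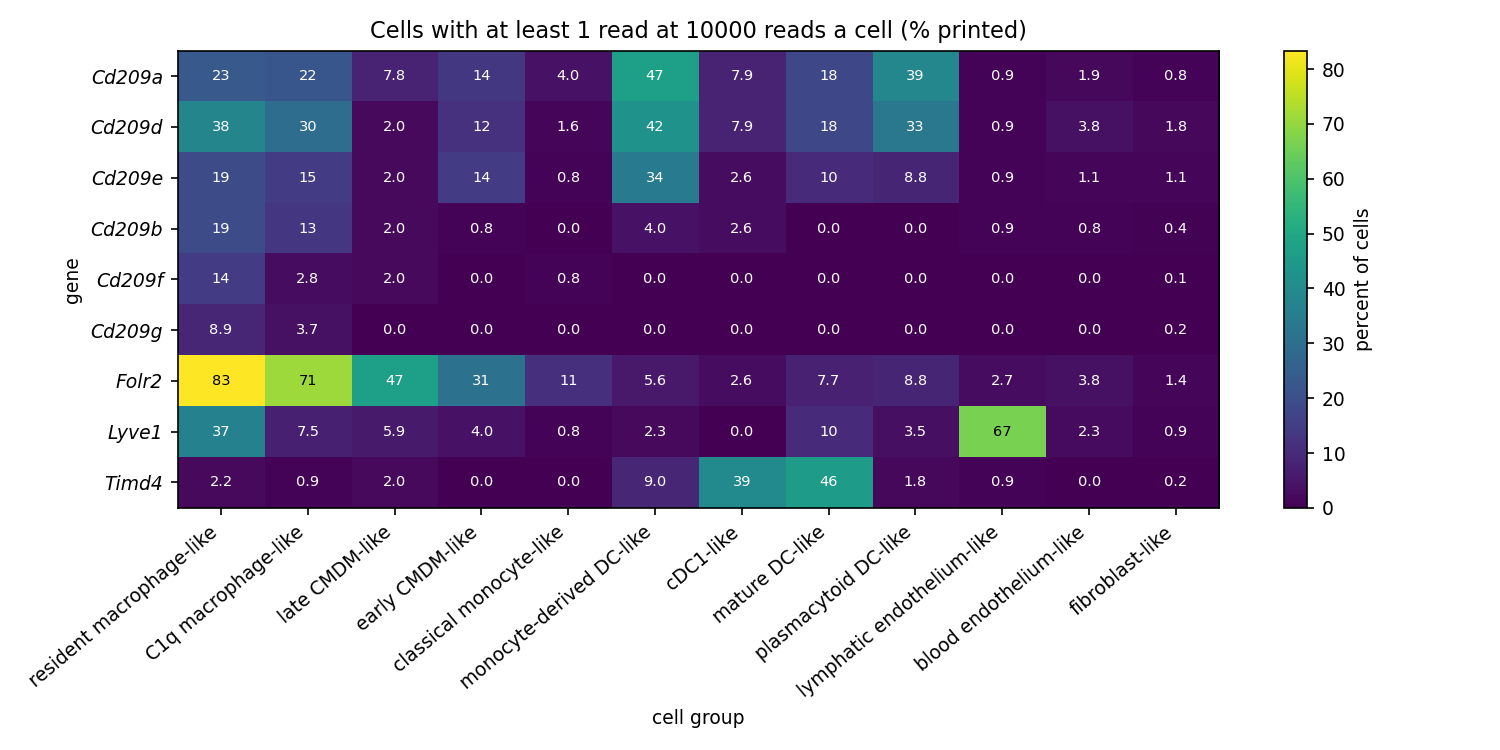
Share of cells (percent, printed and as colour) with at least 1 read of each gene (rows) after thinning to 10000 reads a cell, in 12 cell groups (columns), all pools together. Folr2 was found in 83.3% of resident macrophage-like cells and in 71.0% of C1q macrophage-like cells, while Timd4 was found in 46.2% of mature DC-like and 2.22% of resident macrophage-like cells.

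The CD209 genes were often read together in single cells, counted here without thinning. Deeper cells show more genes, so unequal depth can raise such counts, and its part was not tested. Of 196 monocyte-derived DC-like cells, 83 had reads of 2 or more of the 6 genes, 24 of 1 gene and 89 of none. Of the 94 cells with Cd209a, 75 also had Cd209d and 63 Cd209e, although Cd209d was found in 42.9% and Cd209e in 34.7% of all cells of the group. In the resident macrophage-like group 35 of 93 cells had 2 or more of the genes, and up to all 6. The macrophage set lay inside the wider one: 25 of the 26 resident cells with Cd209b, Cd209f or Cd209g also had Cd209a, Cd209d or Cd209e. All 10 cells with Cd209g had Cd209d and 9 of them had Cd209f. Reads shared by near copies can add to the last count.

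**Figure D3:**
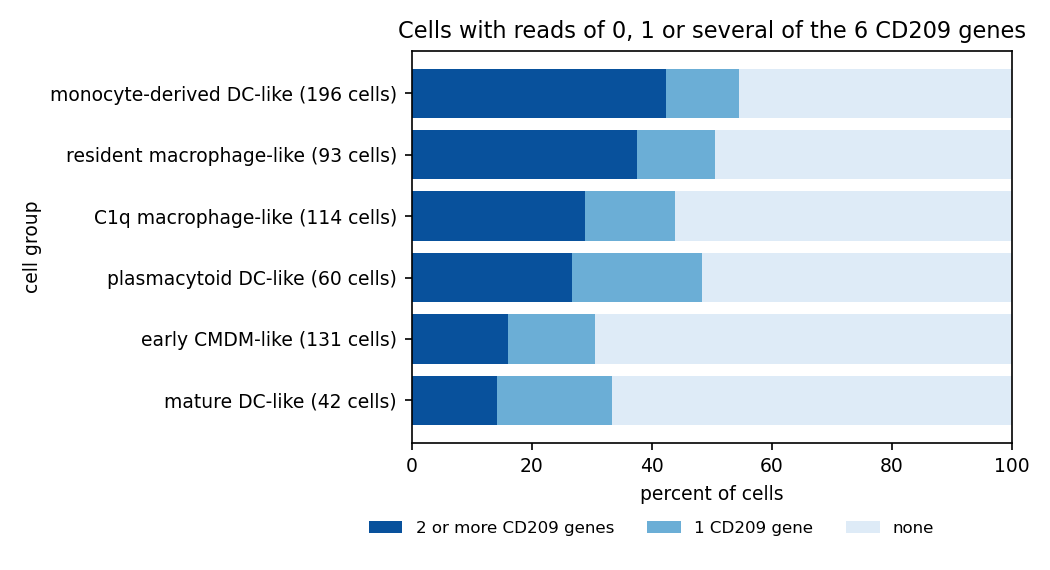
Percent of cells (bars) with reads of 2 or more, of 1 or of none of the 6 CD209 genes, in 6 cell groups, all pools together. Cells with 2 or more genes made up 42.3% of monocyte-derived DC-like and 37.6% of resident macrophage-like cells, against 16.0% of early CMDM-like and 14.3% of mature DC-like cells. Cells were not thinned, and the median depth was 37110, 60975, 54948 and 49670 reads in that order.

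Across 23 cell groups of at least 20 cells, the log2 level of Cd209a was most like that of Cd209e (r = 0.94), Mgl2 (0.93) and Cd209d (0.92). Mgl2 is a galactose-binding C-type lectin of dermal DCs and macrophages. Cd209f was most like Slc7a13 (0.95), Slc39a12 (0.94) and Cd209g (0.93), and Cd209b like Tlr5 (0.93), Cd209g (0.84) and Cd209f (0.82). Cd209a and Cd209f were less alike (r = 0.36). Folr2 followed C1qc (0.95), Prune2 (0.94) and Pf4 (0.94). Timd4 followed Syngr2 (0.92), 4930512J16Rik (0.92) and Flt3 (0.90), Flt3 being the cytokine receptor of the DC lineage, and its r with Folr2 was 0.24 and with Lyve1 -0.03. For Lyve1 the highest values were 0.76, with Pkhd1l1 and Platr4, and 0.74, with Gm49066. The points share 1 library and many are low in every gene compared, so these values are descriptions.

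Folr2 was read in most resident macrophage-like cells and, with all pools together, declined stepwise over the other macrophage groups. It stood at 703.9 CPM (684.4 to 723.9) in resident macrophage-like, 446.2 CPM in C1q macrophage-like, 229.3 CPM in late CMDM-like, 108.6 CPM in early CMDM-like and 48.7 CPM in monocyte-like cells. In thinned cells the shares fell in the same order, from 83.3% through 71.0%, 47.1% and 31.2% to 11.3%, with 1.44% in fibroblast-like cells (unthinned 89.2%, 76.3%, 59.6%, 44.3%, 13.3% and 6.26%).

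Across pools, Folr2 in resident macrophage-like cells was 757.0, 619.4, 747.0 and 749.5 CPM, and in C1q macrophage-like cells 310.6, 484.1, 378.1 and 473.4 CPM. Every resident pool lay above every C1q pool. The 7 fibroblast markers summed to 11798 CPM in the C1q macrophage-like WT day 3 pool, the one with the lowest Folr2. They summed to 1329, 843.7 and 913.9 CPM in the other C1q pools, and their part was not tested. Late CMDM-like cells gave 361.8, 180.8, 379.7 and 244.0 CPM, above the C1q value in both day 3 pools. Their Ccr2-/- values came from 4 and 2 cells. Early CMDM-like cells gave 89.4, 283.9, 33.2 and 7.71 CPM and lay above the late group in WT day 5. The stepwise order thus did not hold within every pool.

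Lyve1 was foremost a gene of the lymphatic endothelium in this skin. The 161 lymphatic endothelium-like cells held 73.6% of all Lyve1 reads and stood at 3056 CPM, against 552.3 CPM in resident macrophage-like cells, 29.3 CPM in C1q macrophage-like cells and 9.36 CPM in blood endothelium-like cells. The lymphatic pools (1272, 3001, 2033 and 5218 CPM) all lay above the resident pools (796.9, 144.6, 715.0 and 821.8 CPM). In thinned cells, 66.7% of lymphatic endothelium-like and 36.7% of resident macrophage-like cells had a read, against 7.48% of C1q macrophage-like and 0.89% of fibroblast-like cells (unthinned 60.2%, 46.2%, 12.3% and 6.17%).

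Within the resident macrophage-like group, Lyve1 marked a part of the Folr2 cells. Without thinning, both genes were read in 42 of 93 cells, Folr2 alone in 41, Lyve1 alone in 1 and neither in 9. In the C1q macrophage-like group Folr2 alone was read in 74 of 114 cells and both in 13. In the lymphatic endothelium-like group Lyve1 alone was read in 94 of 161 cells and both in 3. The 6 lymphatic markers summed to 62.5, 58.1, 184.6 and 227.0 CPM in the resident macrophage-like pools, with 1, 2, 2 and 1 of the 6 at 0. Pdpn, which fibroblasts also express, made up most of the sum except in WT day 3, where Mmrn1 was the highest marker at 23.7 CPM. They summed to 10057 CPM in lymphatic endothelium-like cells, where Lyve1 was 3056 CPM.

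Timd4 did not behave as a macrophage gene in this lesion. It was read in 3 of 93 resident macrophage-like cells, at 2.71 CPM (1.63 to 4.24), and in 2 of 114 C1q macrophage-like cells, at 2.73 CPM. Its highest level was in mature DC-like cells, at 692.3 CPM (656.9 to 729.2), followed by cDC1-like cells at 181.1 CPM, the gate for type 2 conventional DCs at 172.3 CPM (3 of 17 cells), the unnamed MHC class II-high gate at 80.5 CPM and monocyte-derived DC-like cells at 78.9 CPM. Of the 3 receptors grouped as genes of tissue residence, these data thus went against that label for Timd4.

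The mature DC-like group was led by Ccr7, Fscn1, Il4i1 and Cacnb3, genes of DCs that migrate to lymph nodes. Timd4 stood there at 399.3 CPM in WT day 3 (5 of 16 cells with a read), 705.9 CPM in WT day 5 (3 of 8), 1277 CPM in Ccr2-/- day 3 (5 of 7) and 715.0 CPM in Ccr2-/- day 5 (6 of 11). In cDC1-like cells the pools gave 175.0, 67.3, 0 and 388.3 CPM, the 0 from 3 cells. In thinned cells 46.2% of mature DC-like and 39.5% of cDC1-like cells had a read, against 2.22% of resident macrophage-like and 0.20% of fibroblast-like cells (unthinned 45.2%, 43.6%, 3.23% and 1.09%). The 8 monocyte-macrophage markers summed to 1984 CPM in mature DC-like cells and to 9291 CPM in resident macrophage-like cells.

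**Figure D4:**
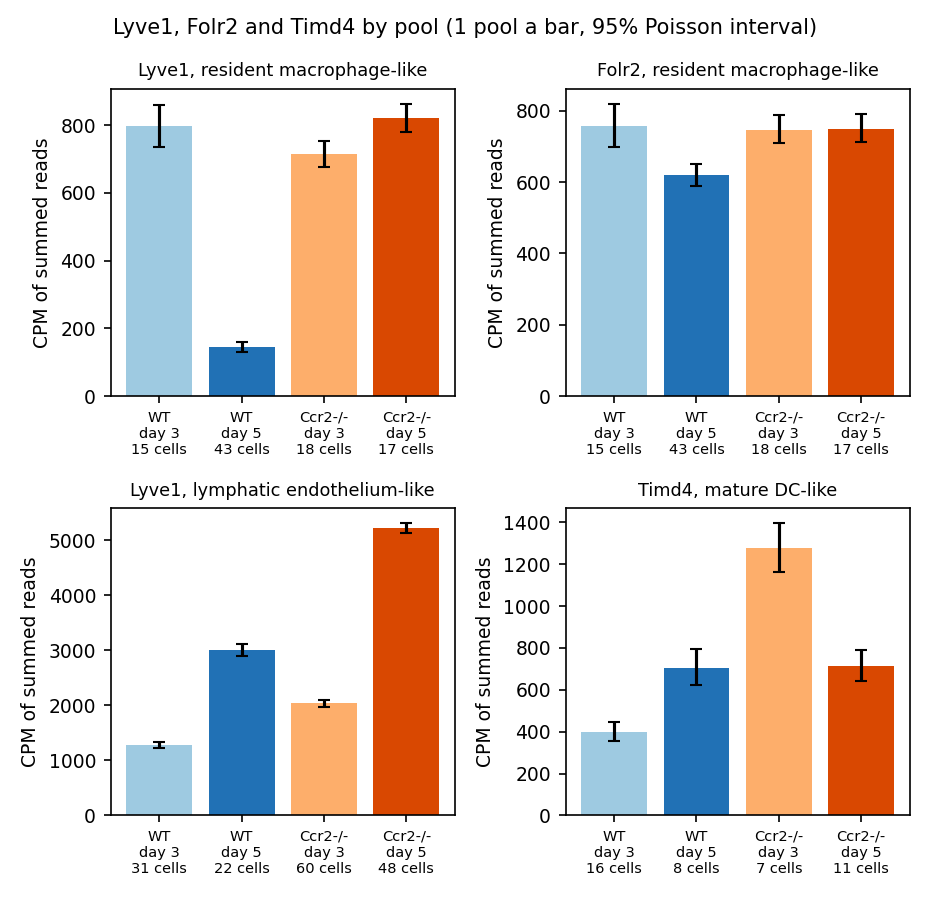
Lyve1 in resident macrophage-like and lymphatic endothelium-like cells, Folr2 in resident macrophage-like cells and Timd4 in mature DC-like cells, 1 bar a pool (CPM of summed reads, linear axis from 0), with exact 95% Poisson intervals as error bars. Resident macrophage-like Lyve1 is lowest in WT day 5 (144.6 CPM), resident macrophage-like Folr2 lies between 619.4 and 757.0 CPM in all pools, and mature DC-like Timd4 between 399.3 and 1277 CPM.

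Compared with C1q macrophage-like cells over all pools, resident macrophage-like cells were past 2-fold higher in Lyve1 (4.19 on the log2 scale, pseudocount 1 CPM), Cd209g (3.03) and Cd209f (1.73) and past 2-fold lower in Cd209e (-1.40). That was 4 of the 8 members with at least 50 reads, where 14.7% of all 11399 genes passed. Compared with monocyte-derived DC-like cells, 8 of 9 members passed, against 24.4% of 11859 genes. The members are macrophage and DC genes chosen with earlier results known, so an excess over all genes does not show an enrichment. Cd209b, Cd209f, Cd209g, Folr2 and Lyve1 were higher and Cd209a, Cd209e and Timd4 lower, while Cd209d was within 2-fold (-0.67).

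Both comparisons were also tested with the 4 pools as samples, in an edgeR quasi-likelihood fit on all genes with pool as a block. The fit was chosen after these values were seen, and the groups were cut from other genes of the same cells. Against monocyte-derived DC-like cells, 7 of 9 members passed, where 3.39% of 10080 genes did. Given how the members were chosen, that excess too does not show an enrichment. Folr2 was higher by 5.04 ± 0.29 on the log2 scale (SE, adjusted p = 0.00143), Lyve1 by 7.50 ± 0.81 (adjusted p = 0.00662) and Cd209b by 5.20 ± 0.61 (adjusted p = 0.00912), each in 4 of 4 pools. Cd209a was lower in 4 of 4 pools (-2.74 ± 0.31, adjusted p = 0.00795). These 4 genes passed without any 1 of the pools. Cd209e (-3.63 ± 0.72, adjusted p = 0.0420), Cd209f (adjusted p = 0.0253) and Cd209g (adjusted p = 0.0183) passed as well. Cd209e passed only without WT day 3 when a pool was left out (adjusted p = 0.0905, 0.102 and 0.163 without the others), Cd209f in no such fit (0.0541 to 0.0743), and Cd209g in all but the one without WT day 5 (0.0593). Cd209d (-1.01 ± 0.30, adjusted p = 0.123) and Timd4 (-5.07 ± 1.13, adjusted p = 0.0573) were lower in 4 of 4 pools and did not pass.

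Against C1q macrophage-like cells edgeR called 0% of 9278 genes, with 410 at an unadjusted p under 0.05, and DESeq2 called 56. Lyve1 (4.67 ± 0.97), Cd209g (4.01 ± 0.81) and Folr2 (0.80 ± 0.22) were higher in resident macrophage-like cells in 4 of 4 pools, each at an edgeR adjusted p of 0.939. By DESeq2, Cd209g (adjusted p = 0.000406) and Lyve1 (adjusted p = 0.0287) passed.

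Other macrophage genes set the scale. Of the genes of tissue-residence macrophages fixed beside the members and not used for the gates, 10 of 10 with enough reads were past 2-fold higher in resident macrophage-like than in monocyte-derived DC-like cells, with a median log2 difference of 2.86 where that of all genes was 0.04. Against C1q macrophage-like cells 2 of 10 (Cd36 and Ednrb) were higher, with a median of 0.15, where 14.7% of all genes passed either way. The highest of that list in resident macrophage-like cells were Selenop (10386 CPM), a selenium transport protein, and Mrc1 (3815 CPM), the mannose receptor, which was a gate marker. Of other C-type lectins, 9 of 14 were past 2-fold lower in resident macrophage-like than in monocyte-derived DC-like cells and none higher, with a median of -1.44. Mrc1 led them in resident macrophage-like cells, followed by Mgl2 at 286.8 CPM, which stood at 828.9 CPM in monocyte-derived DC-like cells. Among receptors that share a ligand with a member, Stab1 (467.0 CPM), a hyaluronan scavenger receptor, and Cd44 (322.4 CPM), the main hyaluronan receptor, were highest. Against monocyte-derived DC-like cells, 2 of 9 of these receptors were past 2-fold higher in resident macrophage-like cells and 4 lower. The share of all genes past 2-fold in that comparison was 24.4% either way. Cd209c, the remaining lectin gene of the cluster, was at 3.7 CPM in resident macrophage-like and 33.3 CPM in monocyte-derived DC-like cells.

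Loss of Ccr2 was compared in cells of 1 kind, since the lineage changed in make-up: resident macrophage-like cells made up 15 of 424, 43 of 423, 18 of 123 and 17 of 83 lineage cells in the 4 pools. In the lineage taken whole, 6 of 9 members were past 2-fold higher in Ccr2-/- than in WT at day 3 (Cd209a, Cd209b, Cd209d, Cd209e, Cd209f and Lyve1), where 13.6% of all genes passed. At day 5, 3 of 8 members were higher (Cd209d, Cd209e and Lyve1) and Cd209g lower, against 17.6%. From WT day 3 to WT day 5, Cd209b and Cd209f were higher and Timd4 lower, 3 of 9 against 9.16%. Lyve1 in the lineage was 59.9, 30.6, 219.2 and 274.0 CPM, and Cd209d 118.4, 186.9, 514.0 and 404.7 CPM, so that the Ccr2-/- pools lay above the WT pools for both. The share of resident macrophage-like cells was also higher in both Ccr2-/- pools than in the WT pools, and its part in the genotype differences was not tested. Between days the share was higher at day 5 in each genotype. At day 5 Lyve1 was lower in WT and higher in Ccr2-/-, and Cd209d was higher in WT and lower in Ccr2-/-. Other groups changed as well, C1q macrophage-like cells from 20 to 78 between the WT days. The part of the make-up in the differences between days was not tested.

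In resident macrophage-like cells Folr2 differed little between the pools, from 619.4 CPM in WT day 5 to 757.0 CPM in WT day 3. Lyve1 had 1 low pool, WT day 5 (144.6 CPM, 11 of 43 cells with a read), beside 796.9 CPM in WT day 3 (8 of 15), 715.0 CPM in Ccr2-/- day 3 (13 of 18) and 821.8 CPM in Ccr2-/- day 5 (11 of 17). The low pool was also the one with the most Ccr2: 183.6, 680.3, 2.13 and 33.2 CPM in the same order. The Ccr2 value of WT day 5 lay above that of the whole lineage in that pool (625.4 CPM) and near that of C1q macrophage-like cells (665.1 CPM). The paper describes its resident-like macrophages as low in Ccr2, so the name holds less well for that pool. The 8 monocyte-macrophage markers summed to 12395, 11699, 6311 and 7777 CPM, with Lyz2, a lysozyme of myeloid cells, the highest in WT and C1qa in Ccr2-/-, and their part in the differences between genotypes was not tested. Single cells weighed heavily, since the top cell held 30.3%, 57.9%, 30.4% and 59.2% of the Lyve1 reads.

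The Lyve1 ratio on the log2 scale was -2.45 from WT day 3 to WT day 5, -0.16 for Ccr2-/- over WT at day 3 and 2.50 at day 5. Of the 8 members with 50 reads, 6 were past 2-fold between the WT days (Cd209a, Cd209b and Lyve1 lower, Cd209e, Cd209f and Cd209g higher), 3 between genotypes at day 3 (Cd209b and Cd209g lower, Cd209e higher) and 3 at day 5 (Cd209f and Cd209g lower, Lyve1 higher). The background was high in groups this small, with 31.4%, 37% and 31.6% of all genes past 2-fold. Folr2 and Cd209d were within 2-fold in all 3 comparisons. Cd209e had no read in 15 WT day 3 cells, which allows up to 3.75 CPM, and stood at 42.2, 127.5 and 65.3 CPM in the other pools. Cd209g was 73.7, 190.9, 19.2 and 46.6 CPM, with 73.4% of the WT day 5 reads in 1 of 3 cells.

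Over both days, an edgeR quasi-likelihood fit on reads summed by pool, with day as a term, called 0% of 10342 genes between genotypes in resident macrophage-like cells, with 939 at an unadjusted p under 0.05, while DESeq2 called 185 of 19626 and none of the members. On simulated counts the genotype fits missed most large changes, so that a count of 0 does not show that genes were alike. The log2 difference of Ccr2-/- against WT was 1.16 ± 0.70 (SE) for Lyve1 (adjusted p = 0.686), 0.12 ± 0.24 for Folr2 (adjusted p = 0.920) and -1.99 ± 0.42 for Cd209g (adjusted p = 0.398). Lyve1 rested on the WT day 5 pool: without it, and with no day term, the difference was -0.03, and without the WT day 3 pool 2.40. For Cd209g it was -1.12 without WT day 5, -2.84 without Ccr2-/- day 5 and, with all pools, -3.66 at a hashtag ratio of 10. An exact permutation of the 4 pools gave p = 0.67 for Lyve1 (adjusted over 9 relations, 0.857). With 6 splits it cannot give less than 0.33.
In the 3 gene lists, 0 of 20, 0 of 12 and 0 of 8 genes passed the edgeR test, and the medians were -0.27 for tissue-residence genes, -0.57 for other lectins and -0.41 for receptors with a shared ligand, where that of all genes was 0.06.

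When the phagocytes were re-clustered in place of the gates, again without the members, the resident macrophage-like cluster held 183 cells, 58 of them from the 93 gated ones. Lyve1 was then 703.6, 223.1, 363.1 and 504.6 CPM in the 4 pools, still lowest in WT day 5, and its mean log2 difference between genotypes was 0.11 where the gates gave 1.17. Folr2 was 850.1, 847.3, 644.1 and 680.7 CPM, now lower in both Ccr2-/- pools. Cd209d was 387.4, 737.2, 813.1 and 545.2 CPM. The small Folr2 difference thus changed its direction between gates and clusters.

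In monocyte-derived DC-like cells the Ccr2-/- pools lay above the WT pools for Cd209a, Cd209d and Cd209e. Cd209d was 469.7, 424.4, 798.6 and 832.0 CPM, and Cd209e 321.7, 400.6, 578.4 and 783.8 CPM. The mean log2 difference was 0.85 for Cd209a, 0.87 for Cd209d and 0.91 for Cd209e, each with exact permutation p = 0.33, the smallest the 4 pools allow (adjusted 0.75). None of the 3 was past 2-fold within a day. Of the members with 50 reads, 0 of 6 passed between the WT days, 0 of 5 between genotypes at day 3 and 1 of 5 at day 5 (Timd4, 1.12 on the log2 scale), against 18.6%, 33.6% and 32% of all genes.

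Other genes of the group moved in the same comparison. The 8 monocyte-macrophage markers summed to 9233, 6888, 2410 and 3907 CPM, and tissue-residence genes were past 2-fold lower in Ccr2-/- for 10 of 15 at day 3 and 11 of 14 at day 5, with none higher. Their part in the CD209 differences was not tested. In the re-clustered group of 162 cells, of which 90 were gated here, Cd209a was 930.1, 738.1, 1209 and 837.3 CPM and Cd209d 923.3, 1091, 1131 and 975.4 CPM. The genotype difference shrank to 0.28 for Cd209a and 0.07 for Cd209d, and the ranges of the WT and Ccr2-/- pools overlapped. Although the clustering left the members out, Cd209a, Cd209d and Cd209e were among the 10 leading genes of that cluster.

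**Figure D5:**
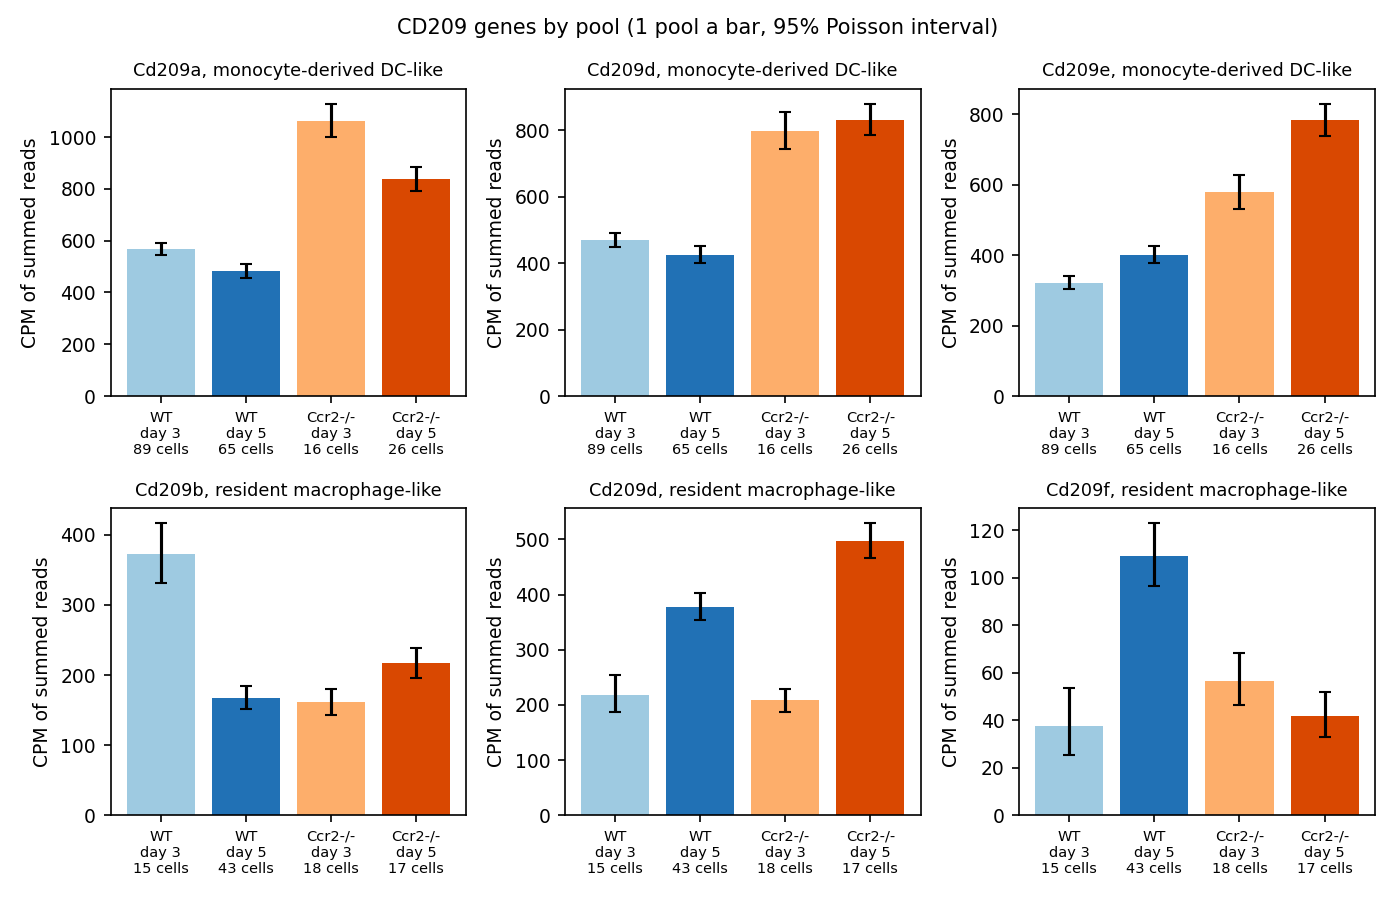
Cd209a, Cd209d and Cd209e in monocyte-derived DC-like cells (top) and Cd209b, Cd209d and Cd209f in resident macrophage-like cells (bottom), 1 bar a pool (CPM of summed reads, linear axis from 0), with exact 95% Poisson intervals as error bars. In the top row both Ccr2-/- bars stand above both WT bars, whereas in the bottom row the tallest bar is WT day 3 for Cd209b (372.2 CPM), Ccr2-/- day 5 for Cd209d (496.8 CPM) and WT day 5 for Cd209f (109.3 CPM).

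Timd4 in mature DC-like cells was lower in WT day 3 than in the other pools, and the Ccr2-/- pools, at 1277 and 715.0 CPM, lay above the WT pools, at 399.3 and 705.9 CPM. The difference in means was 0.85 on the log2 scale (exact permutation p = 0.33, adjusted 0.75), and edgeR gave 0.86 ± 0.54 (SE, adjusted p = 0.9996). With no day term, the edgeR difference was 0.49 or 1.35 without the WT pool of day 3 or 5, and 0.38 or 1.21 without the Ccr2-/- pool of day 3 or 5. The WT day 3 pool also had the highest sum of monocyte-macrophage markers (3729.5, 323, 1451 and 919.8 CPM) and the lowest of the 8 DC markers (3207, 5702, 4016 and 3643 CPM), and their part in the difference was not tested. No gene passed in that group (0% of 6103, 188 at an unadjusted p under 0.05, with DESeq2 14), nor any of the 9, 8 and 2 tested genes of the 3 lists. WT day 5 and Ccr2-/- day 5 had overlapping intervals (624.3 to 795.1 and 644.0 to 791.7 CPM).

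In lymphatic endothelium-like cells Lyve1 was higher at day 5 in both genotypes, at 1272 and 3001 CPM in WT and at 2033 and 5218 CPM in Ccr2-/-. The difference between genotypes was 0.74 on the log2 scale (exact permutation p = 0.67, adjusted 0.857). The permutation did not hold the day fixed, and the ratio was positive within both days. Between the WT days Lyve1 was the only member with 50 reads and was past 2-fold higher (1.24), where 35.5% of all genes passed. Between genotypes it was within 2-fold at day 3 (0.68, background 31.7%) and at day 5 (0.80, background 35.4%), while Cd209d and Folr2 passed at day 3 on reads of which 1 cell held 97.7% and 88.2% over all pools.

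The WT lymphatic values were fragile. A single cell held 56.7% of the WT day 5 reads, and by the mean over cells the ratio of the WT days was -0.16. The ratio of the genotypes at day 5 was past 2-fold as the mean over cells (1.39) and without the top cell (1.42). The 7 fibroblast markers summed to 42040.5, 1477, 4326 and 2412 CPM in the 4 pools. Without the 15 cells above 5000 CPM of these markers, Lyve1 was 1818, 3059, 2037 and 5574 CPM, and the ratio of the WT days 0.75. The lymphatic markers themselves summed to 7229, 17275, 7468 and 11708 CPM, so that they too were higher at day 5 in each genotype.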

How the data were processed

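Cells of the 4 hashtagged pools were read as 1 library prepared by the TAS-Seq method on BD Rhapsody. According to the methods and processing notes, Cutadapt and Bowtie2 were used by the authors for trimming and alignment, and hashtags were called by fold change. GRCm38.p6 is the build named there. The deposited values are whole-number counts of reads per gene and barcode, without molecular identifiers and not normalized, and a second deposited table holds hashtag counts, of which 9 columns are named by no label and were not used.

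A barcode needed at least 10 reads over the 4 hashtags together. It was given to the pool whose hashtag stood at 3 times the next or more. For this ratio 1 read was added to each count, which was then divided by the total of its hashtag. Cells above 20% mitochondrial reads or below 200 genes were left out. Cells were clustered with scanpy 1.11.5 (2000 variable genes, 30 components, 20 neighbours, resolution 1) without the members, and phagocytes were gated by fixed marker lists. Reads were summed by group and pool. Ratios used a pseudocount of 1 CPM, and a gene needed 50 reads. edgeR 4.0.16 (TMM, filterByExpr, Benjamini-Hochberg adjustment) was fitted on all genes, with day as a term between genotypes and pool as a block between cell groups, with DESeq2 1.42.0 as an alternative, after a check on simulated counts. Each pool is 1 sample, so p-values measure only the spread between the 4 pools, which may be technical. The members and lists were chosen with earlier results of these data known. Named are the 9 members, the 2 highest of each list in resident macrophage-like cells, and the 3 genes most like each member. Too few cells (17) passed the gate for type 2 conventional DCs for a split by pool. Scrublet marked 2 of 7118 cells (0.0281%), which did not work as a doublet filter, and no doublets were removed. Promoter windows are from RefSeq, matched by symbol for 8 of 9 members, at the first start listed for a gene.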

Additional observations from a re-analysis of the deposited data

How the results depend on the processing

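As few as 7 cells in a pool stand behind a compared group (mature DC-like, Ccr2-/- day 3), and single cells carry much of a level. Lyve1 in resident macrophage-like cells (552.3 CPM) was 416.9 by re-clustering, 430.9 as the mean over cells, 437.4 without the top cell and 316.5 with no lead needed. Folr2 there (703.9) was 663.5 at a hashtag ratio of 10, 676.0 without the top cell, 647.1 with no lead and 727.7 without the 5% of cells with the highest Scrublet scores. Timd4 in mature DC-like cells (692.3) was 637.8, 844.4, 588.3, 589.2 and 554.0 at a hashtag ratio of 10, by re-clustering, as the mean over cells, without the top cell and with no lead. Lymphatic Lyve1 (3056) was 3222 at a mitochondrial limit of 10%, 2837 as the mean over cells, 2841 without the top cell, 3274 without the 5% and 3396 without cells rich in fibroblast markers. Its ratio between the WT days (1.24) reversed to -0.16 as the mean over cells and was 0.83 without the top cell and 0.75 without cells rich in fibroblast markers, and that between genotypes at day 5 (0.80) was 1.39 and 1.42 under the first pair of these. The thinned share with Folr2 (83.3%) was 71.0% at 5000 reads. The CD209 contrasts kept their direction in every alternative: Cd209a was higher in DC-like than in resident cells by 2.33 to 2.90 on the log2 scale, and Cd209b higher in resident cells by 3.38 to 4.76. Of 80 CD209 levels under alternatives, 48 left the counting interval. Called genes between genotypes (0 in both groups) were 185 by DESeq2, 302 with no filter on low counts and 8 at a hashtag ratio of 10 in resident macrophage-like cells, and 14, 16 and 1 in mature DC-like cells. Without the filter the members called were Lyve1 (edgeR adjusted p = 0.0169), Cd209g (0.0229) and Cd209e (0.0234). Leaving out each pool in turn gave 0 to 6 calls (5 without WT day 3, 1 without WT day 5, 0 without Ccr2-/- day 3, 6 without Ccr2-/- day 5) and 1 to 47 (47, 20, 1 and 10). Between cell groups with pool as a block, resident over C1q macrophage-like cells (0 calls) gave 56 by DESeq2 and 77 with no filter, and resident over monocyte-derived DC-like cells (342) gave 1367 and 1147, and 55 to 294 with a pool left out (99 without WT day 3, 294 without WT day 5, 55 without Ccr2-/- day 3 and 85 without Ccr2-/- day 5). In the genotype comparisons such a fit assumes that the lone pool of a genotype varies like the other pair. The cause of these shifts was not tested. The filter on fibroblast markers, the fits without a day term or a pool, the fits between cell groups, the 5% Scrublet limit, and the alternatives for genotype and day differences were chosen after seeing the data. The pools carry no replicate numbers. The genotypes were set against each other within days by the day term of the edgeR fit, and without that term edgeR also called 0 genes in both groups.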
